A study of Rattus norvegicus with 14 samples.

Results

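The 9 genes described here encode the calcium/calmodulin-dependent protein kinases (CaM kinases) and the kinases that switch them on: Camkk1, Camkk2, Camk1, Camk1d, Camk4, Camk2a, Camk2b, Camk2d and Camk2g. They were chosen as a family by symbol, with earlier results of these data known. All 9 were listed among 18239 genes for hippocampal neurons and among 31791 genes for hippocampal astrocytes. RNA-seq compared cultures given allopregnanolone (AM-Allo), a neurosteroid made from progesterone that acts on GABA A receptors, with cultures given the ethanol vehicle (AM-Veh). Cells came from hippocampi of Sprague Dawley rat fetuses at embryonic day 18, and every group, controls included, was kept in Aging Model (AM) medium, in which supplements or serum hormones are reduced. Neuron cultures (4 AM-Veh and 4 AM-Allo libraries) were moved to AM medium at day 10 for 4 h and then received 100 nM Allo or vehicle for 16 h. Astrocyte cultures (3 and 3 libraries), grown from mixed glia whose loosely attached cells were shaken off, were kept in AM medium for 24 h and then treated for 24 h at the same dose. The labels do not say whether libraries came from separate animals or cultures, so p-values measure the spread between these libraries, which may be technical. No group outside AM medium was analysed here.

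Calcium that enters a cell binds calmodulin, and calcium-loaded calmodulin opens and activates the CaM kinases. CaMKII assembles into large rings of alpha, beta, delta and gamma subunits, which phosphorylate their neighbours and stay active after calcium falls, and in hippocampal synapses it is known for its part in long-term potentiation. CaMKI and CaMKIV act as single subunits in a cascade, in which CaM kinase kinases (CaMKK) phosphorylate them, CaMKI acting mostly in the cytoplasm on axon and dendrite growth and CaMKIV in the nucleus on the transcription factor CREB.

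The regions around the start of 3 genes are shown because these genes were higher in AM-Allo neurons at an unadjusted p under 0.05 (Camk2a, Camkk1 and Camk2g, below). They are RefSeq sequences of assembly GRCr8, 250 bases before to 50 bases after 1 annotated start per gene. They contain the last stretch upstream of the gene and the first transcribed bases. Capitals mark TGACG or its reverse complement, the core of the cAMP response element (CRE) to which CREB binds. The GRCr8 positions are chr18:56648930-56649229 on the plus strand for Camk2a, chr10:58135685-58135984 on the plus strand for Camkk1 and chr15:3553106-3553405 on the plus strand for Camk2g.
Camk2a: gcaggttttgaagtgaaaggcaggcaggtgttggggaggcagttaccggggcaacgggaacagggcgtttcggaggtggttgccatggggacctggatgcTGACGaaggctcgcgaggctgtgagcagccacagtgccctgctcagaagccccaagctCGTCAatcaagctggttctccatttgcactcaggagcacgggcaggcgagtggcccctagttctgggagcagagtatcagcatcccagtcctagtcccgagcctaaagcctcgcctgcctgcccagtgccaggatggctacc
Camkk1: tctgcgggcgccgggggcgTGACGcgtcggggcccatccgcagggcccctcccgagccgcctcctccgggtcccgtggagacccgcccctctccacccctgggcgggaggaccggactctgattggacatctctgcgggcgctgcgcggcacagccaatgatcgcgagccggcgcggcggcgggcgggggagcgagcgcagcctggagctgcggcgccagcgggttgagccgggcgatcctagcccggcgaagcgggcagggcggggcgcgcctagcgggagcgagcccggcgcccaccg
Camk2g: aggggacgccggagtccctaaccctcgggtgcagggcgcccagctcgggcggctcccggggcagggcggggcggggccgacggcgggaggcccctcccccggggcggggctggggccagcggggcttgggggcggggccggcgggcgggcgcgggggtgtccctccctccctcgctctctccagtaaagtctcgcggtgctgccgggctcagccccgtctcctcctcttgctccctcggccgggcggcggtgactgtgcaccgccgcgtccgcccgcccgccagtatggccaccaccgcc

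Of the 9 genes, 7 had such a sequence (Camk1d and Camkk2 did not). TGACG on either strand, a match that also falls inside every full CRE, was found in 21.2% of 33469 rat promoters of this length. It stood at 2 places in the Camk2a promoter, 150 and 92 bases before the start, at 1 place in Camkk1, 231 bases before it, and at 1 place in Camk1, 193 bases before it. It was not found in Camk2b, Camk2d, Camk2g or Camk4. The full palindrome TGACGTCA, present in 1.83% of all promoters, was in none of the 7. GGGCGG, the box bound by Sp1 (33.1% of all promoters), occurred 9 times in Camk2g, 6 times in Camk2b, 4 times in Camkk1 and 3 times in Camk2d. It was not found in Camk2a, Camk1 or Camk4. The Camk2a window had a GC content of 61.3% and the Camk2b window 81.3%, against a median of 51.7% over all promoters. These matches are letters in a window and say nothing of binding in these cultures.

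Depth was estimated from the most frequent low value of a library, taken as the value of 1 read, since the deposited counts are normalized. A neuron library held about 19500000 to 25200000 reads on genes and an astrocyte library about 22200000 to 28700000, and 1 read was worth 0.835 to 1.14 normalized counts. The labelled cell types were checked against marker genes. In neuron cultures, 11 neuron markers summed to 53491 to 58994 normalized counts in AM-Veh and 55473 to 64034 in AM-Allo, with Map2 the most abundant. The same libraries held 199565 to 258956 normalized counts of 9 astrocyte markers in AM-Veh and 198968 to 251362 in AM-Allo, led by Gfap, and 38365 to 45308 of 8 oligodendrocyte lineage markers, led by Olig1. As CPM, the normalized counts scaled to the same sum in every library, the astrocyte markers stood at 9024 to 11599, against 10035 to 10669 in the astrocyte cultures, so the cultures labelled as neurons also held glial RNA. The 6 microglia markers found there summed to 33.0 to 57.1 (led by Tmem119), and the 6 mesenchymal markers to 625 to 1450 in AM-Veh and 758 to 2557 in AM-Allo (led by Pdgfrb). Astrocyte cultures held Gfap at 135934 normalized counts in AM-Veh, and the neuron markers Rbfox3, Slc17a7, Slc17a6 and Nefl at under 5 in each group mean, while Stmn2 (21790), Map2 (3873) and Gad1 (1803) were abundant. They also held 1435 to 1852 normalized counts of microglia markers, led by Csf1r, and 60498 to 71815 of mesenchymal markers, led by Col1a2. The 4 endothelial markers listed for these astrocyte libraries summed to 514 to 620 normalized counts, led by Kdr, although Cldn5 among them stood at 0. In these bulk libraries, fewer cells of a type and less RNA per cell cannot be told apart.

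The CaM kinase family differed in make-up between the cultures, and the largest ratio was that of Camk2b. Levels are given in CPM, as means over all libraries of a culture. The tables of the cultures were normalized separately, so these levels stand side by side with no test, and they are not corrected for gene length. Camk2b, the CaMKII beta subunit that also binds actin, stood at 256 CPM in neuron cultures and 3.32 in astrocyte cultures, a 77.0-fold difference. Camk2a, the alpha subunit of forebrain excitatory synapses, stood at 53.3 and 4.41, or 12.1-fold. Camk4 stood at 3.08 CPM in neuron cultures and 0.148 in astrocyte cultures, where it rested on 0.831 to 7.38 normalized counts in a library. These 3 genes marked the neuron cultures most clearly, and in none of them did a neuron library overlap an astrocyte library.

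Camkk1, the CaMKK alpha isoform, was also higher in neuron cultures (17.9 CPM against 4.71), as were Camk2g (104 against 44.5) and Camkk2 (16.2 against 8.56), the CaMKK beta isoform that also phosphorylates AMPK. The other 3 genes were higher in astrocyte cultures. Camk2d, the CaMKII delta subunit found in many tissues, stood at 173 CPM there and 93.8 in neuron cultures. Camk1 stood at 56.8 against 33.0, and Camk1d, the delta isoform of CaMKI, at 54.7 against 22.4, a 2.44-fold difference in favour of the astrocyte cultures. In the plot of levels the ranges of the cultures do not meet for any of the 9 genes.

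**Figure D1:**
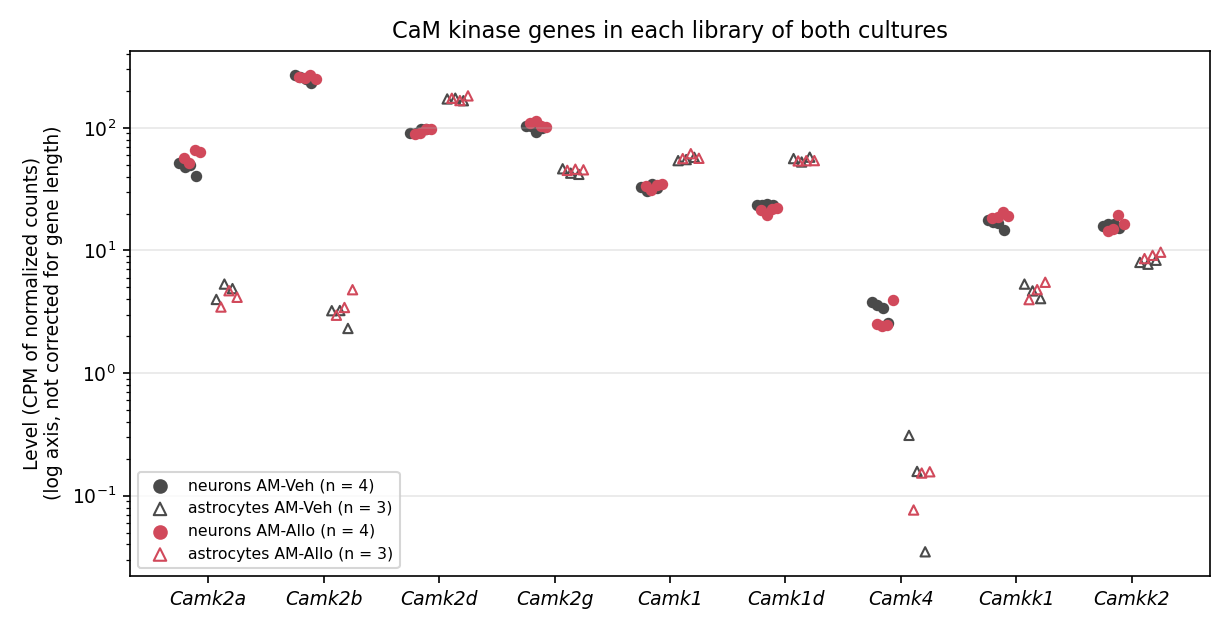
Level in CPM, normalized counts scaled to the same sum (log axis, not corrected for gene length) of the 9 CaM kinase genes, with filled circles for neuron libraries (4 AM-Veh in grey, 4 AM-Allo in red) and open triangles for astrocyte libraries (3 and 3). Camk2b, Camk2a and Camk4 show the widest gaps between the cultures, and Camk2d, Camk1 and Camk1d are the 3 genes with the triangles above the circles.

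The balance of CaMKII subunits followed the culture. In AM-Veh neurons, Camk2b took 51.2% ± 1.37 (SD, n = 4) of the normalized counts of the 4 CaMKII genes, Camk2g 20.3% ± 1.06, Camk2d 19.0% ± 1.48 and Camk2a 9.55% ± 0.688. In AM-Veh astrocytes, Camk2d took 76.9% ± 0.599 (SD, n = 3), Camk2g 19.6% ± 0.846, Camk2a 2.13% ± 0.318 and Camk2b 1.31% ± 0.207. These are shares of reads, to which a longer transcript gives more, so they do not rank subunits by molecules. They are also shares of whole cultures, and the neuron cultures held astrocyte markers at 9024 to 11599 CPM. The part of glial RNA in the neuron culture shares and ratios was not tested. Length cancels when the ratio of a gene pair is compared between cultures, provided each gene has the same transcripts in both, which was not checked. Camk2b to Camk2d was 157-fold higher in AM-Veh neuron cultures than in AM-Veh astrocyte cultures. Camk2a to Camk2d was 18.1-fold higher, and Camk2d to Camk2g was 0.239 times that in astrocyte cultures. The share of Camk2g was close to 20% in both.

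**Figure D2:**
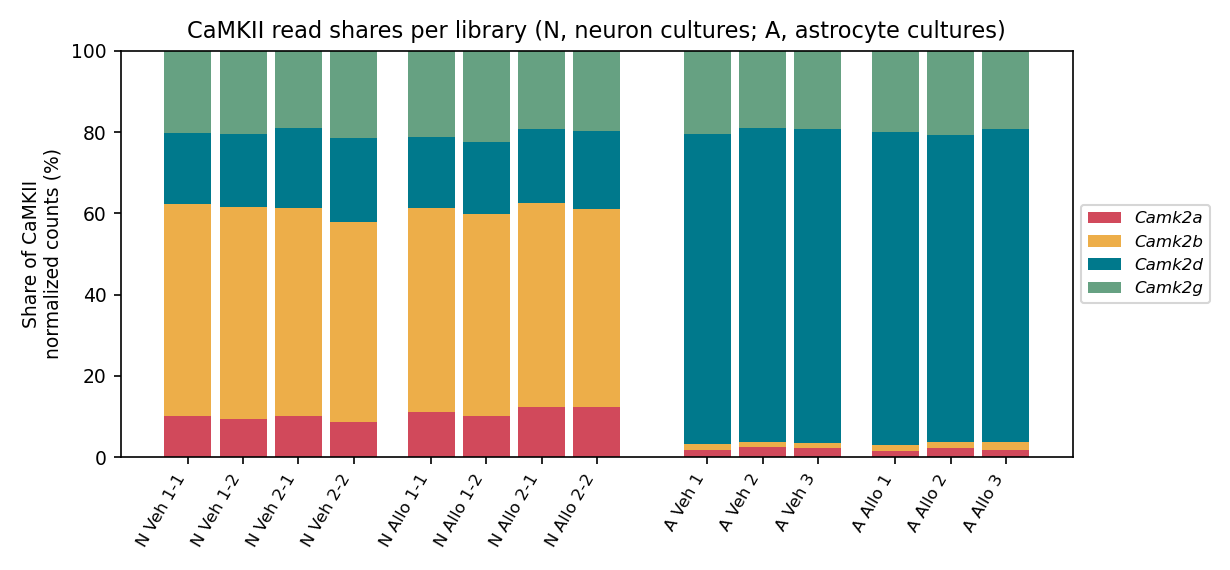
Share (%) of the normalized counts of the 4 CaMKII genes in each library, stacked to 100, with neuron libraries (N) on the left and astrocyte libraries (A) on the right. Camk2b fills 48.8% to 52.2% of each neuron bar and Camk2d 75.5% to 77.3% of each astrocyte bar, and the Camk2a segment is 8.60% to 10.1% in AM-Veh and 10.1% to 12.3% in AM-Allo neurons.

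In neurons, the question was whether Allo changed the messages of calcium-activated kinases. At an unadjusted p under 0.05 (limma on log2 normalized counts), Camk2a, Camkk1 and Camk2g were higher and Camk1d lower in AM-Allo, and the other 5 genes did not pass. Thus 4 of 9 genes passed, against 5.69% of all 15314 genes tested, with 3 higher (3.21% of all genes) and 1 lower (2.48%). None of the 9 had an adjusted p under 0.05, which 0.0261% of all genes had. The groups did not overlap for 3 of the 9 (Camk2a, Camkk1 and Camk1d), against 3.95% of all genes. The median log2 fold change of the 9 was 0.03 and that of all genes tested -0.0015. The study picked Camk2a and Camk2g for display, and Camk1d and Camkk1 for its list of changed calcium signaling genes, on these same libraries. The counts of genes that passed are therefore not independent evidence of a change or of its direction.

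At the head of the cascade, Camkk1 passed the unadjusted threshold and Camkk2 did not. Camkk1 stood at 390, 373, 375 and 330 normalized counts in the AM-Veh libraries numbered 1-1, 1-2, 2-1 and 2-2, and at 405, 411, 453 and 430 in the AM-Allo libraries of the same numbers. All 4 AM-Allo values lay above all AM-Veh values, and AM-Veh 2-2 was the lowest. The log2 fold change was 0.21 (SE 0.068; unadjusted p = 0.0105, limma adjusted p = 0.67; with the number as a block 0.00803 and 0.258). Camkk2 ranged from 343 to 370 in AM-Veh and from 318 to 432 in AM-Allo. The groups overlapped and the log2 fold change was 0.02 (95% interval -0.19 to 0.22, limma adjusted p = 0.998). The ratio of Camkk1 to Camkk2 was 1.15-fold higher in AM-Allo, with overlapping groups, and the difference between their responses was not tested.

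Of the kinases that CaMKK activates, Camk1d was the one that was lower. It stood at 514, 520, 536 and 522 normalized counts in AM-Veh and at 473, 428, 482 and 492 in AM-Allo. Every AM-Allo library lay below every AM-Veh library, and AM-Veh varied by 1.85% (coefficient of variation). The log2 fold change was -0.16 (SE 0.056; unadjusted p = 0.0168, limma adjusted p = 0.731; with the block 0.0137 and 0.314). Camk1, the isoform named CaMKI alpha, ranged from 673 to 780 in AM-Veh and 686 to 781 in AM-Allo, with a log2 fold change of 0.04 (limma adjusted p = 0.997). The ratio of Camk1 to Camk1d did not overlap between the groups: its log2 was 0.46 ± 0.070 in AM-Veh and 0.66 ± 0.016 in AM-Allo (SD, n = 4). Camk1d alone did not overlap either, and the study listed it on these same libraries, so this ratio is not independent evidence of a change.

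Camk4, the nuclear kinase of the cascade, was the least counted of the 9. It stood at 82.9, 78.7, 76.0 and 57.2 normalized counts in AM-Veh and at 55.6, 53.0, 55.2 and 88.2 in AM-Allo. AM-Allo 2-2 lay above all AM-Veh libraries and the other 3 AM-Allo libraries lay below them. The log2 fold change was -0.24 (SE 0.19, unadjusted p = 0.231, limma adjusted p = 0.976), and without AM-Allo 2-2 it was -0.41 (unadjusted p = 0.0284, limma adjusted p = 0.97).

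Among CaMKII subunits, Camk2a had the largest log2 fold change. It stood at 1134.4, 1044, 1110 and 900 normalized counts in AM-Veh and at 1242, 1134.7, 1468 and 1410 in AM-Allo. The groups did not overlap, but the highest AM-Veh value (1-1) and the lowest AM-Allo value (1-2) nearly met. The log2 fold change was 0.33 (SE 0.092, a 1.25-fold ratio of means) with an unadjusted p of 0.00497 and a limma adjusted p of 0.609. With the number as a block the unadjusted p was 0.000551 and the limma adjusted p 0.0697, still above 0.05. The two-sided exact permutation p was 0.0286, the smallest that 4 libraries against 4 allow. Without AM-Veh 2-2 and with the first part of the number as a block (a fit chosen after the values were seen), the log2 fold change was 0.22 (limma adjusted p = 0.109).

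Camk2g, the gamma subunit, which carries calmodulin to the nucleus in neurons, stood at 2282, 2263, 2075 and 2243 normalized counts in AM-Veh and at 2411, 2513, 2310 and 2270 in AM-Allo. The groups overlapped, since AM-Allo 2-2 lay below AM-Veh 1-1. The log2 fold change was 0.10 (SE 0.044; unadjusted p = 0.0439, limma adjusted p = 0.851; with the block 0.0101 and 0.278). Camk2g lay nearest to the threshold on the passing side, and its p was 0.0504 to 0.136 under 7 of the alternatives, among them leaving out AM-Veh 1-2, 2-1 or 2-2 or AM-Allo 1-1 or 1-2. Camk4 lay nearest on the other side.

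Camk2b and Camk2d did not pass. Camk2b stood at 5922, 5725, 5623 and 5150 in AM-Veh and 5695, 5587, 6032 and 5595 in AM-Allo, with overlapping groups and a log2 fold change of 0.03 (95% interval -0.07 to 0.13). Camk2d ranged from 1981 to 2175 in AM-Veh and from 1954 to 2180 in AM-Allo, with a log2 fold change of -0.0025 (95% interval -0.11 to 0.11). Both intervals lie below the log2 fold change of 0.33 estimated for Camk2a, whose own 95% interval was 0.12 to 0.53. The interval of Camk2b overlaps that of Camk2a. The difference between Camk2a and Camk2d was not tested, and that between Camk2a and Camk2b is given as a ratio below.

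**Figure D3:**
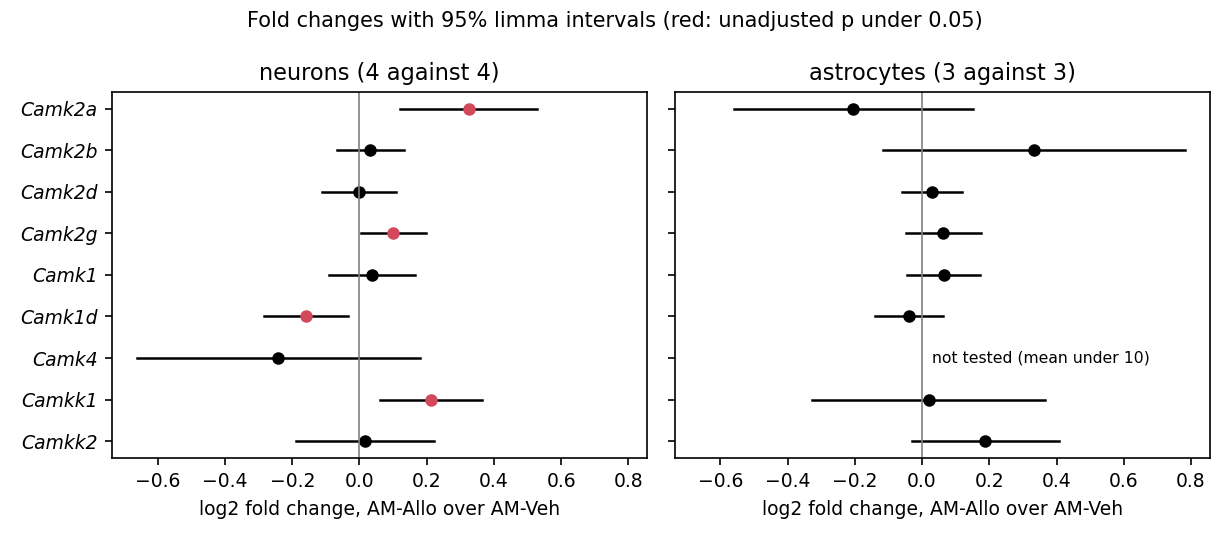
log2 fold change of AM-Allo over AM-Veh (points) with 95% limma intervals (lines) for the 9 CaM kinase genes in neurons (left) and astrocytes (right), red where the unadjusted p was under 0.05. In neurons Camk2a (0.33), Camkk1 (0.21) and Camk2g (0.10) lie to the right and Camk1d (-0.16) to the left, while in astrocytes every interval crosses 0 and Camk4 was not tested.

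The balance of Camk2a to Camk2b differed between the treatment groups in neurons. The ratio of their normalized counts was 0.192, 0.182, 0.197 and 0.175 in AM-Veh and 0.218, 0.203, 0.243 and 0.252 in AM-Allo. All AM-Allo libraries lay above all AM-Veh libraries. On the log2 scale the ratio was -2.42 ± 0.077 in AM-Veh and -2.13 ± 0.14 in AM-Allo (SD, n = 4), a difference of 0.29 with a two-sided exact permutation p of 0.0286, the smallest possible. Within pairs of the same number it was higher in AM-Allo in 4 of 4, and the exact sign-flip p was 0.125, the smallest that 4 pairs allow. The study had picked Camk2a on these same libraries, so these tests are not independent evidence of a change in the ratio. The difference in log2 ratio was 0.33 for Camk2a to Camk2d and 0.22 for Camk2a to Camk2g, and in both the groups overlapped. The share of Camk2a among CaMKII counts was 9.55% ± 0.688 for AM-Veh libraries and 11.4% ± 1.07 for AM-Allo libraries. The sum of the 4 genes was 10948 ± 362 and 11494 ± 339 normalized counts.

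The neuron libraries fall into sets by the first part of their number, whose meaning the labels do not give, and the Camk2a difference was larger in set 2 at an unadjusted p under 0.05 but not after adjustment. Within set 1 the log2 difference of AM-Allo and AM-Veh was 0.13 and within set 2 it was 0.52, higher in AM-Allo in each (interaction term, unadjusted p = 0.00344, limma adjusted p = 0.254). Camkk1 was higher in AM-Allo by 0.10 in set 1 and 0.33 in set 2 on the log2 scale (interaction term in limma, unadjusted p = 0.0803, adjusted p = 0.59). Camk2g (0.11 and 0.09) and Camk1d (-0.20 and -0.12) kept their direction in both sets.

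The log2 differences of 4 genes had opposite signs in the sets (Camk2b, Camkk2, Camk4 and, with values near 0, Camk2d). For Camk2b the log2 difference was -0.05 in set 1 and 0.11 in set 2 (interaction term, unadjusted p = 0.0254, limma adjusted p = 0.43). For Camkk2 it was -0.13 and 0.16 (0.0415 and 0.498). Camk4 had the widest gap between the sets, -0.56 in set 1 and 0.08 in set 2 (interaction term, unadjusted p = 0.0725, limma adjusted p = 0.576), and Camk2d stood at -0.0081 and 0.0031. The interaction had an unadjusted p under 0.05 in 3 of the 9 genes, against 9.53% of all genes, and an adjusted p under 0.05 in 0 of the 9, against 0.0784%. For the treatment effect with the number as a block, 4 of the 9 genes had an unadjusted p under 0.05 (10.7% of all genes) and 0 an adjusted p under 0.05 (0.607%). In level, Camk2d was 0.13 higher in set 2 than in set 1 on the log2 scale (limma adjusted p = 0.00382), the one member with such a set difference past the threshold, which 17.2% of all genes had.

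**Figure D4:**
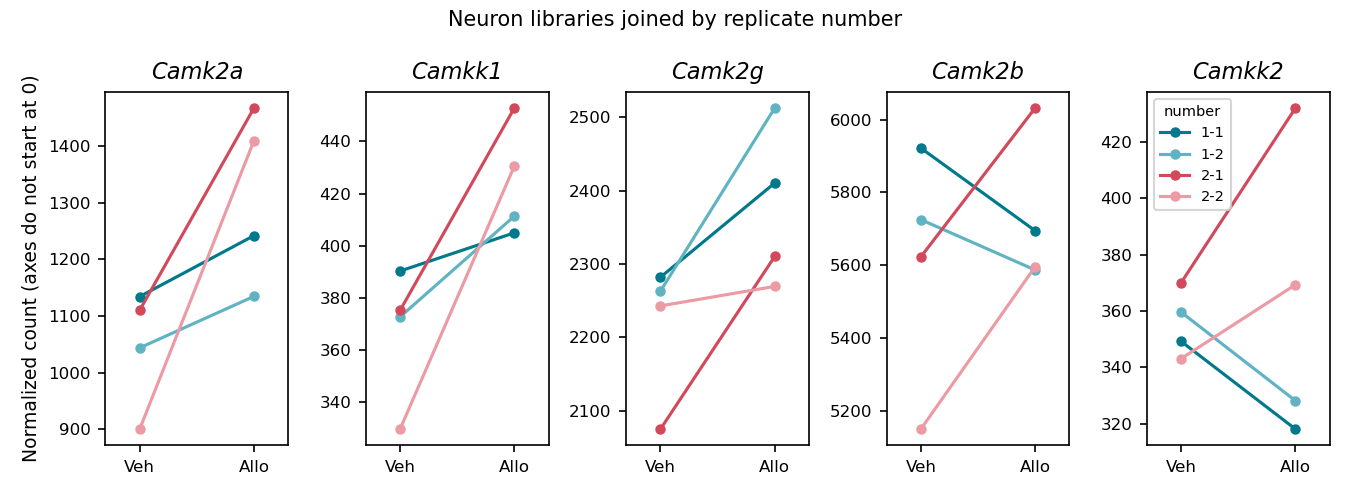
Normalized counts of 5 CaM kinase genes in the 8 neuron libraries, each line joining the AM-Veh and AM-Allo libraries of 1 replicate number (set 1 in blue, set 2 in red; each axis has its own scale and does not start at 0). All lines go up for Camk2a, Camkk1 and Camk2g, steepest in set 2 for the first pair of genes, while for Camk2b and Camkk2 the set 1 lines go down and the set 2 lines go up.

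Markers of neuron types moved beside Camk2a. Slc17a7, the vesicular glutamate transporter of excitatory neurons, chosen after its values were seen, had a log2 fold change of 0.29 (unadjusted p = 0.00419, limma adjusted p = 0.589), and the log2 ratio of Camk2a to Slc17a7 was -0.91 ± 0.063 in AM-Veh and -0.87 ± 0.052 in AM-Allo (SD, n = 4), with overlapping groups. Relative to Slc17a7, the Camk2a difference was 0.04 on the log2 scale, and that of Camkk1 was -0.08. Of 11 neuron markers, 3 were higher at an unadjusted p under 0.05 (Map2, Tubb3 and Slc17a7) and 2 lower (Gad2 by -0.45, Nefl by -0.23), and of 6 excitatory markers 2 were higher (Slc17a7, Tbr1) and 0 lower. The summed neuron markers were lowest in AM-Veh 2-2 and highest in AM-Allo 2-1, the libraries with the lowest and highest Camk2a. Averaged per gene on the log2 scale against AM-Veh, the neuron markers were also highest in AM-Allo 2-1 (0.157). By that measure they were lowest in AM-Allo 1-2 (-0.243), and AM-Allo 1-1 (-0.108) also lay below AM-Veh 2-2 (-0.086). The part of these markers in the Camk2a and Camkk1 differences was not tested. None of the 9 astrocyte or 8 oligodendrocyte lineage markers had an unadjusted p under 0.05 in neuron cultures.

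The genes whose levels went most like Camk2a over the 8 neuron libraries were Tmem132a (Pearson r = 0.989), Ank3 and Cntn2 (both 0.987). Among the members, Camkk1 was the closest (0.959), then Camk2b (0.678), and Camk1d was the one with a negative value (-0.376). These values are descriptions over libraries that share treatment groups and sets.

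In astrocytes, none of the 8 CaM kinase genes tested reached an unadjusted p under 0.05, against 7.01% of all 15380 genes tested, and none an adjusted p under 0.05, against 0.0065%. Camkk2 had the lowest p of the 8. It stood at 190, 185 and 198 normalized counts in AM-Veh and at 204, 218 and 232 in AM-Allo. All AM-Allo values of Camkk2 lay above all AM-Veh values. Groups that did not overlap, in either direction, were found for 1 of the 9 genes (Camkk2) and for 12.5% of all genes tested. The log2 fold change was 0.19 (SE 0.10; unadjusted p = 0.0866, limma adjusted p = 0.77), and the two-sided exact permutation p was 0.1, the smallest that 3 libraries against 3 allow.

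The dominant astrocyte subunit, Camk2d, stood at 4089, 4183 and 3970 normalized counts in AM-Veh and at 4146, 3981 and 4374 in AM-Allo. The groups overlapped, with a log2 fold change of 0.03 (95% interval -0.06 to 0.12). Camk2g ranged from 996 to 1102 and from 1071 to 1097, and the log2 ratio of Camk2d to Camk2g was 1.97 ± 0.073 in AM-Veh and 1.94 ± 0.073 in AM-Allo (SD, n = 3; two-sided exact permutation p = 0.6). Camk1 (log2 fold change 0.06), Camk1d (-0.04) and Camkk1 (0.02) did not pass either.

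Both neuronal subunits were low in astrocyte cultures and scattered widely. Camk2a stood at 94.7, 127 and 117 normalized counts in AM-Veh and at 82.2, 112 and 99.5 in AM-Allo, and its log2 fold change of -0.20 had a 95% interval of -0.56 to 0.15. Camk2b stood at 76.7, 77.5 and 55.1 in AM-Veh and at 70.5, 81.7 and 115 in AM-Allo (log2 fold change 0.33, 95% interval -0.12 to 0.78). Without AM-Allo 1 the log2 fold change of Camk2b was 0.48 (unadjusted p = 0.0467, limma adjusted p = 0.589). Camk4 stood at 7.38, 3.78 and 0.831 in AM-Veh and at 1.82, 3.64 and 3.76 in AM-Allo, below the mean of 10 required for the main test. Fitted with no filter on low values, the log2 fold change of Camk4 was -0.08 with a 95% interval of -1.31 to 1.15 (limma adjusted p = 0.989). These libraries do not exclude differences within that range. For Camk2a, the interval in astrocytes overlaps that in neurons, and the difference between the cultures was not tested.

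The genes around the CaM kinases were read as 7 lists, of which 78 genes were tested in neurons and 73 in astrocytes. In neurons 3 were higher and 2 lower at an unadjusted p under 0.05, or 6.41% of 78 against 5.69% of all genes, and in astrocytes 3 were higher and 1 lower, or 5.48% of 73 against 7.01% of all genes there. None had an adjusted p under 0.05 in either culture. Of 9 inhibitors and phosphatases 0 passed, and the CaMKII inhibitor genes Camk2n1 (0.07) and Camk2n2 (-0.02) were among them. Nor did any of 6 calmodulin-binding buffers or 10 genes of calcium entry pass in either culture.

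Of 13 other calmodulin-dependent or related kinases tested in neurons, 1 was higher, the death-associated kinase Dapk1 (log2 fold change 0.20, limma adjusted p = 0.65). Of 17 synaptic partners and substrates of CaMKII, Arhgef7, an exchange factor for Rac, was higher (0.11), and the actin cross-linkers Actn1 (-0.16) and Actn4 (-0.08) were lower. Of 20 targets of CaMKK, CaMKI and CaMKIV, 1 was higher, the transcription factor Mef2c (0.25). The study had picked Arhgef7 and Mef2c on these libraries too. In astrocytes the 4 genes were the doublecortin-like kinase Dclk2 (0.09), the CREB family gene Crem (0.27) and the kinase Akt1 (0.09), which were higher, and the AMPA receptor subunit Gria1 (-0.14), which was lower.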

How the data were processed

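Poly(A)-selected stranded RNA libraries were sequenced by the authors as paired ends. The authors used Salmon 0.14 for the transcripts of the rat, added these up per gene and normalized the result with DESeq2 1.18.1. The deposited signal is this normalized count per gene, 1 table per cell type. A second deposited table per cell type holds variance-stabilized values on a scale close to log2. It served as an alternative only, since in neurons it has equal means for both sets of replicate numbers in every gene. The number of columns left unused was 0.

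Values were tested as log2(normalized count + 1), which understates the change of low genes. Genes with a mean of at least 10 were tested with limma 3.58.1 (lmFit, eBayes with a trend) in R 4.3.3, AM-Allo against AM-Veh in each cell type alone. Adjusted p-values are those of Benjamini and Hochberg, over every gene tested in a culture. The SE and 95% interval of a fold change come from limma. Single ratios had a two-sided exact permutation test. The limma fit was checked on simulated independent libraries with no sets and with changes larger than those estimated for the members. That check does not cover sets of libraries or small changes. Samples were grouped by their labels.

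The members and lists were chosen with earlier results of these data known. Named were all 9 members, list genes with an unadjusted p under 0.05 (up to 3 higher and 3 lower per list), the most abundant marker of each list, the 3 genes most like Camk2a, and the members nearest the threshold. In neurons, deviations of AM-Veh and AM-Allo libraries with the same number correlated at 0.229 to 0.296 over genes, those that share the first part alone at 0.185 to 0.236, and those that differ in it at -0.319 to -0.150. All 4 pairs were over 0.1, so the numbers were taken as pairs, although AM-Veh 1-2 correlated slightly more with AM-Allo 1-1 than with its own number. A block by the first part was fitted as well. Alternatives were other scalings, filters, pseudocounts, model options, blocks and libraries left out. The result of 1 list is not reported here.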

Additional observations from a re-analysis of the deposited data

Results flagged for a closer look

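In AM-Allo neurons, Camk4 in library 2-2 (88.2 normalized counts) stood apart from the other 3, which lay between 53.0 and 55.6: the gap took 0.925 of the range of the group. The threshold used for such gaps is passed by chance in about 1 of 20 groups.

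For 3 of the 9 genes the effect of Allo in neurons differed between set 2 and set 1 of the replicate numbers at an unadjusted p under 0.05 (interaction term in limma). The same held for 9.53% of all genes. The difference in log2 fold change was 0.40 for Camk2a, 0.16 for Camk2b and 0.30 for Camkk2, and none had an adjusted p under 0.05.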

How the results depend on the processing

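In neurons, 872 genes had an unadjusted and 4 an adjusted p under 0.05. These counts were 2204 and 158 with variance-stabilized values, 1634 and 93 with a replicate block by the whole number, and 1684 and 104 with a replicate block by its first part. With no trend 0 genes passed after adjustment, and with each library left out 0 to 4 did. In astrocytes, 1078 genes had an unadjusted and 1 an adjusted p under 0.05. After adjustment 0 passed with a minimum mean of 50, 0 with no trend, 4 with a robust fit, 17 with a replicate block, 1 to 72 with a library left out, the highest without AM-Allo 1. Same-number libraries did not deviate together in astrocytes (correlations 0.0241, -0.0070 and 0.0117). Of the genes at an unadjusted p under 0.05 in astrocytes, 53.1% were higher in AM-Allo, and 39.0% with upper-quartile scaling.

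Of the CaM kinase genes, 3 to 5 passed at an unadjusted p under 0.05 in neurons under the 20 alternatives. Of all genes, 5.69% passed in the main fit and 10.7% with the replicate block by the whole number. In astrocytes 1 passed with no trend (Camkk2) and 0 to 1 with a library left out. Camk2a, Camkk1 and Camk1d passed in every fit tried, and the replicate block changed no call of a member. The Camk2a to Camk2b difference (log2) was 0.245 to 0.349 with a library left out, at an exact p of 0.0571, the smallest possible there, and 0.293 as pairs in a replicate block (p = 0.125). The Camk2d to Camk2g difference in astrocytes was -0.0750 to 0.00507 with a library left out.

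Directions turned for members that did not pass. Within the sets of neuron libraries, chosen after seeing the data, Camk2b, Camkk2, Camk4 and Camk2d had opposite signs. With a library left out, the log2 fold change in neurons ran from -0.00776 to 0.0594 for Camk2b (below 0 without AM-Veh 2-2), from -0.0261 to 0.0265 for Camk2d and from -0.0727 to 0.0740 for Camkk2. In astrocytes it ran from -0.00603 to 0.0618 for Camk2d and from -0.0944 to 0.144 for Camkk1. The causes were not tested. Shares per transcript length were not run, since no transcript lengths were at hand. Camk4 and the astrocyte levels of Camk2a, Camk2b and Camkk1 rest on few reads, which limits what could be detected.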
